A study of Rattus norvegicus with 20 samples.

Results

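In all, 10 right ventricles of sham-operated Wistar rats are described, divided by how much messenger RNA of atrial type they held. The libraries were chosen by their own normalized count of Myl7, the regulatory myosin light chain of atrial muscle. Of the 10 sham libraries, 5 had a normalized count of Myl7 above 1000 and are called Myl7-rich, and the other 5 are called Myl7-poor. The study labels 20 samples, of which 19 had a column of values. Because Myl7 of these same libraries chose the sides, every difference between the rich and the poor sham ventricles is a description, also where it is compared between times. An adjusted p from the fit serves there only to mark genes as called and supports nothing. Tests are given for the 9 banding libraries, which played no part in the choice, and for time after surgery, which comes from the labels.

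Total RNA was sequenced after removal of ribosomal RNA. Sham operation was followed by collection of the right ventricle at 4 weeks, when the rats were 7 weeks old (n = 5), or at 8 weeks, when they were 11 weeks old (n = 5). Pulmonary banding, which narrows the artery to the lungs, was done in rats collected at the same ages, with values for 5 ventricles at 4 weeks and for 4 at 8 weeks. The labels name 1 strain and no genotype, drug or batch, call the sham tissue healthy, and give neither the sex of the rats nor how the ventricle was cut from the atrium, so time after surgery and age could not be separated. The labels do not say whether replicates were separate animals, so the p-values measure the spread between these samples. Recovered read totals ran from 2.81 to 6.91 M in the rich and from 4.74 to 7.11 M in the poor sham libraries, and from 2.70 to 8.54 M in banding. The shallowest sham library, replicate 1 at 8 weeks, also had the most Myl7.

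Atrial and ventricular heart muscle use different sets of contractile and regulatory genes. Atrial cells make the light chains encoded by Myl7 and Myl4, the calcium pump inhibitor sarcolipin (Sln) and stored natriuretic peptide (Nppa), while ventricular cells make Myl2, Myl3 and phospholamban (Pln) and the transcription factors of the Irx family. Ventricular muscle makes Nppa before birth and again when it is overloaded, so this gene can report load as well as atrial muscle. The base of the ventricle borders the atrium, the valve ring, the outflow vessel and the fat of the groove between the chambers.

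The promoters of 4 atrial genes that lay far apart between rich and poor sham ventricles are shown, each from 250 bases before to 50 after the annotated start, read 5′ to 3′ along the gene from RefSeq (rat build GRCr8). Capitals mark 3 short motifs found on either strand, so that a match on the opposite strand appears as its reverse complement. The motifs are spelled out after the sequences. The marked matches do not overlap each other.
Myl7, chr14:84996575-84996874, minus strand: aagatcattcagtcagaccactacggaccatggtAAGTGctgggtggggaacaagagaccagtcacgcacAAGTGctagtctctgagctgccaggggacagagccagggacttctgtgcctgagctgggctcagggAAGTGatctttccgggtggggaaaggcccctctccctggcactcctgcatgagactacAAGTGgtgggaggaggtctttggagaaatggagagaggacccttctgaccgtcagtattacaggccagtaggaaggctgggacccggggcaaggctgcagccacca
Myl4, chr10:89975900-89976199, plus strand: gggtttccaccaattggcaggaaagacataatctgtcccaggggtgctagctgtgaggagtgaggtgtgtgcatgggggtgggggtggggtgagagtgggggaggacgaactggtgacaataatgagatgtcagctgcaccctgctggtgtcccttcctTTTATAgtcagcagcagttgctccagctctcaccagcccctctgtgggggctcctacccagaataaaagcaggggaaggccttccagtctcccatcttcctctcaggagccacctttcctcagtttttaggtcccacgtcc
Nppa, chr5:163711934-163712233, plus strand: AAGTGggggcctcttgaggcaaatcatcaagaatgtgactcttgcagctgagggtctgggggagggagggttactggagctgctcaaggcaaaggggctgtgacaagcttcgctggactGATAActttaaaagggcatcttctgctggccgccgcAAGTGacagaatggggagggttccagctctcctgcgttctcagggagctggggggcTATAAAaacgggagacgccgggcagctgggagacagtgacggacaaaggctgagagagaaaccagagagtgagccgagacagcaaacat
Mybphl, chr2:198693202-198693501, plus strand: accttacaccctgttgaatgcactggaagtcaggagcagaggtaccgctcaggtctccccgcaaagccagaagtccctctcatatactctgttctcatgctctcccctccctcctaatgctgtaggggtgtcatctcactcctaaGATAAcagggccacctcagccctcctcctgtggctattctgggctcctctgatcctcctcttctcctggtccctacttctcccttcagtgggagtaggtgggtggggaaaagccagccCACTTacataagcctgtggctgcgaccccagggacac

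The letters AAGTG, the core of the NKX2-5 motif, occurred 4 times for Myl7, 2 times for Nppa, 1 time for Mybphl and 0 times for Myl4, and 46.2% of 33469 rat promoters of this length hold at least 1 match. GATAA, the core of the GATA motif, occurred 1 time each for Nppa and Mybphl, against 26.5% of all promoters. TATAAA occurred 1 time each for Nppa and Myl4, for Myl4 on the opposite strand, against 14.2%. Searches for the MEF2 and CArG motifs found 0 matches in the 4 windows, against 3.29% and 1.64% of all promoters. These are matches of letters only.

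Myl7 (NM_001106017) differed widely among sham ventricles that had the same operation. Throughout, values of the rich libraries are given in the order replicates 1 and 3 at 4 weeks and replicates 1, 2 and 5 at 8 weeks, and values of the poor libraries in the order replicates 2, 4 and 5 at 4 weeks and 3 and 4 at 8 weeks. The normalized count of Myl7 was 7268, 2783, 17580.0, 1006 and 4605 in the rich libraries. In the poor libraries Myl7 was 163, 52.5, 237, 129 and 41.1. The lowest rich library, replicate 2 at 8 weeks, was 4.25 times as high as the highest poor library, replicate 5 at 4 weeks. These are the libraries just inside and just outside the limit, and both times hold libraries on both sides. In banding Myl7 ran from 24.7 to 2315, with 2 of 9 libraries above 1000.

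The tissue label could be checked against ventricular genes, which were high on both sides. Myl2, the ventricular regulatory light chain, was 29280.1, 31806, 26889.9, 37665 and 34898 in the rich and 37672, 42085, 32496, 38217 and 37623 in the poor libraries. Its log2 difference, rich minus poor, was −0.25 ± 0.10 (SE) and the sides overlapped, and no sham library was under 26889.9. In whole tissue, more cells of a type and more RNA per cell cannot be told apart, which holds for every value below.

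Other genes of atrial muscle followed Myl7 closely. The normalized count of Myl4 (NM_001109495), the atrial essential light chain, was 1576, 657, 3282, 233 and 1013 in the rich and 9.73, 21.02, 16.5, 20.99 and 11.1 in the poor libraries. Sln (NM_001013247) was 786, 270.3, 1646, 82.2 and 371 in the rich and 5.68, 7.64, 2.20, 5.25 and 7.11 in the poor libraries. In both genes the order of the 5 rich libraries was the order of Myl7, with replicate 1 at 8 weeks at the top and replicate 2 at 8 weeks at the bottom, and all poor libraries lay under them.

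Mybphl (NM_001014042), a myosin-binding protein of atria and conduction tissue, was 365, 122, 841, 60.9 and 213 against 0, 0.955, 1.10, 1.05 and 2.37. Bmp10 (NM_001031824), a growth factor that the atria secrete, was 479, 96.9, 1516, 85.9 and 158 against 5.68, 0, 4.40, 0 and 0.790. Among the poor libraries Mybphl was at 0 in 1 and Bmp10 in 2, and 1 read was worth 0.790 to 1.10 there. Nppa (NM_012612), which encodes atrial natriuretic peptide, was 14197, 4083, 30976, 1789 and 6913 against 76.2, 408, 84.8, 183 and 126. The sides did not overlap in any of these genes.

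On the log2(value + 1) scale, with weeks after surgery in the fit, the difference rich minus poor was 6.86 ± 0.74 for Bmp10, 6.73 ± 0.55 for Mybphl, 6.02 ± 0.59 for Sln, 5.90 ± 0.51 for Myl4 and 5.67 ± 0.62 for Nppa (SE, 5 libraries against 5). This scale understates the difference of genes near 0. The median of all 10589 genes tested was −0.010.

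**Figure D1:**
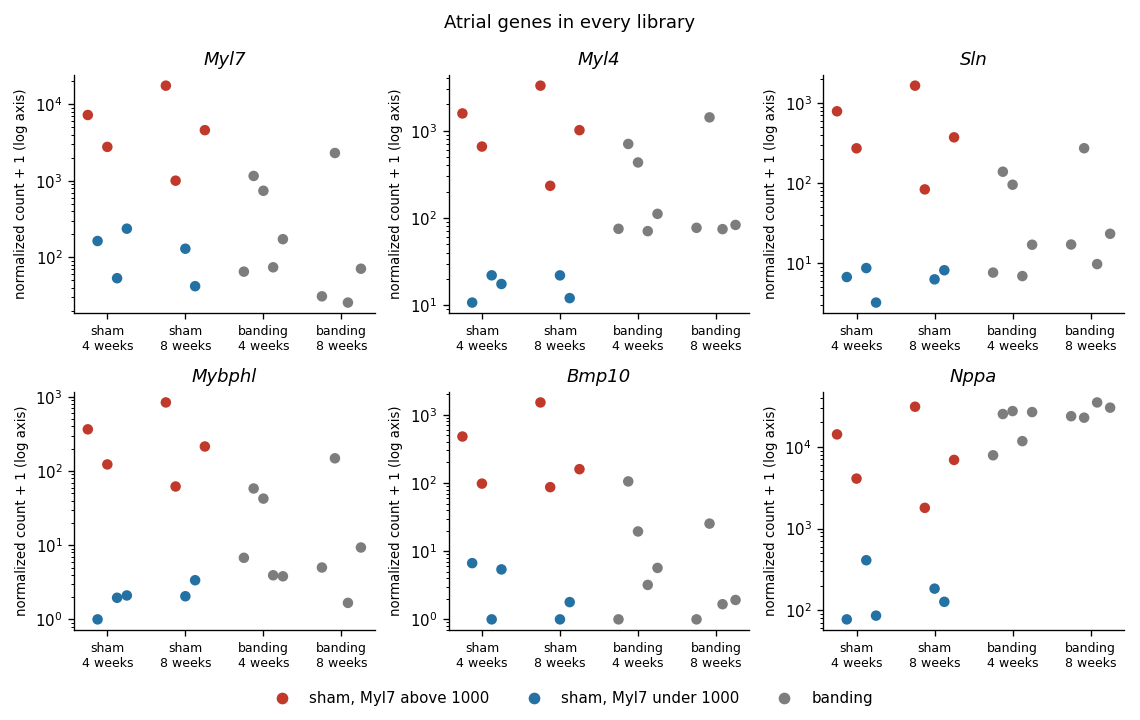
Normalized count + 1 (log axis) of 6 atrial genes in all 19 libraries, by group, with each point 1 library; red and blue mark sham libraries with Myl7 above and under 1000, and grey marks banding. The red points lie above the blue ones in every panel, and Nppa is high in every banding library (7878 or more) whatever its Myl7.

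The other members of the atrial list differed less, and 0 of them were called. Of 22 listed genes, all had an ID, and 19 beside Myl7 reached a value of 10 in at least 4 sham libraries. Sln, Mybphl and Bmp10 reached it through the rich libraries alone, which leans the counts toward higher genes. At a Benjamini-Hochberg adjusted p under 0.05 in limma, the mark used here for a call, 5 of the 19 were called higher and 0 lower, and 15 had a difference above 0, as did 47.4% of all genes. Across all genes 3.02% were called higher and 0.859% lower. The list's median was 0.31. The 5 genes called were those named above. Stard10, a lipid transfer protein, was 267, 136, 575, 129 and 229 in the rich and 141, 55.4, 82.6, 102 and 102 in the poor libraries, a difference of 1.23 ± 0.33 that was not called. Tbx5, a transcription factor of the atria, had 0.44 ± 0.18, and the atrial gap junction gene Gja5 had 0.51 ± 0.23. The potassium channel genes Kcnj3 (−0.061), Kcnj5 (0.31), Kcna5 (−0.18) and Kcnk3 (−0.038), the muscarinic receptor Chrm2 (0.027), the calcium channel Cacna1d (0.38), the transcription factors Nr2f1 (0.15), Nr2f2 (0.26) and Hey1 (−0.039), the peptide amidating enzyme Pam (0.20) and the secreted protein Dkk3 (0.26) all overlapped between the sides. The summed normalized counts of the 22 genes ran from 16939 to 77826 in the rich and from 12129 to 15153 in the poor libraries.

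The atrial genes kept nearly fixed proportions among the rich sham ventricles. The ratio of the normalized count of Myl4 to that of Myl7 was 0.217, 0.236, 0.187, 0.231 and 0.220 in the rich libraries. For Sln over Myl7 the ratios were 0.108, 0.0971, 0.0936, 0.0817 and 0.0806. For Nppa over Myl7 they were 1.95, 1.47, 1.76, 1.78 and 1.501. While Myl7 itself spanned 1006 to 17580.0, each of these ratios stayed within a narrow range. Bmp10 varied more, with 0.0659, 0.0348, 0.0862, 0.0853 and 0.0344. These ratios are not corrected for gene length, so they compare libraries and not genes.

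In the poor libraries the proportions came apart. Myl4 over Myl7 was 0.0597, 0.400, 0.0698, 0.163 and 0.269, and Nppa over Myl7 was 0.468, 7.76, 0.358, 1.41 and 3.06. The pair of poor libraries with the most Myl7, replicates 2 and 5 at 4 weeks, had the least Nppa of all sham libraries. Replicate 4 at 4 weeks, with a Myl7 of only 52.5, had the most Nppa of the poor libraries. In the 2 banding libraries above the limit, Sln over Myl7 was 0.118 and 0.117. This was above the rich sham libraries (0.0806 to 0.108) and inside the range of the poor ones (0.00930 to 0.173). The poor range rests on few reads, as Sln was only 2.20 to 7.64 there. In the same 2 banding libraries Myl4 over Myl7 was 0.607 and 0.614 and Nppa over Myl7 was 21.7 and 9.83. In the other 7 banding libraries Myl4 ran from 69.6 to 432, above all 5 poor sham libraries. These ratios are a description and were not tested.

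**Figure D2:**
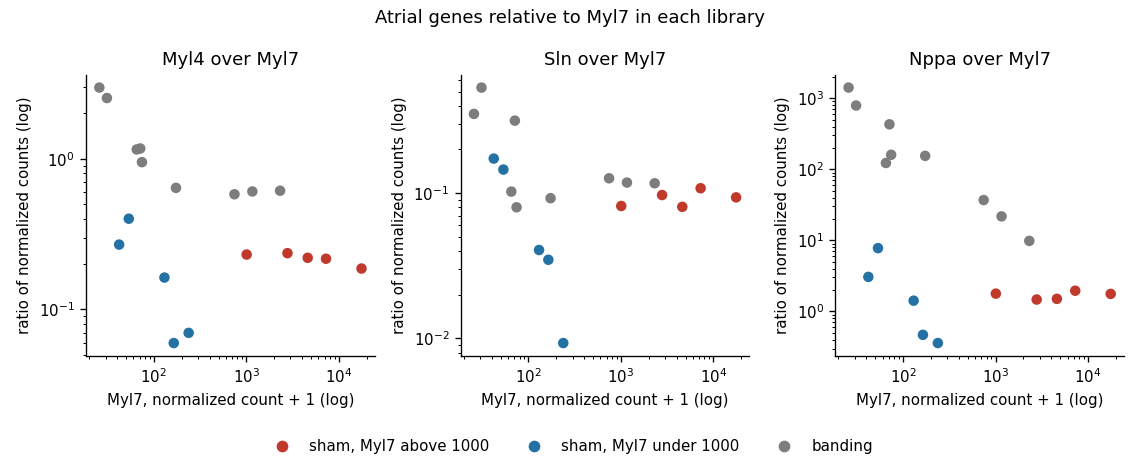
Ratio of the normalized counts of Myl4, Sln and Nppa to Myl7 (log axis) against Myl7 + 1 (log axis) in 19 libraries, with each point 1 library. The 5 rich sham libraries (red) lie on a level line in each panel, between 1.47 and 1.95 for Nppa. Myl7 enters both axes, and the ratio of Nppa falls with it across the banding libraries (grey).

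Most ventricular genes lay slightly lower in the rich ventricles, and the Irx genes lay lowest. Irx3, a homeobox transcription factor of the ventricle and its conduction tissue, was 32.2, 32.03, 32.5, 44.3 and 31.5 in the rich and 74.6, 64.01, 61.7, 85.00 and 64.03 in the poor libraries. All rich libraries lay under all poor ones, and 4 of the 5 rich libraries lay between 31.5 and 32.5. Its log2 difference was −1.03 ± 0.16. Irx5, a member of the same family, was 30.4, 17.2, 11.5, 23.1 and 18.1 against 45.4, 30.6, 37.4, 46.2 and 31.6, without overlap and with a difference of −0.91 ± 0.25. Irx4, which marks ventricular muscle from its origin, was 181, 203, 219.8, 229.9 and 255 against 300.0, 287, 240.0, 311 and 248, a difference of −0.38 ± 0.10 with 1 rich library inside the poor range.

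Of 14 listed ventricular genes 13 passed the filter on low values, 0 were called higher and 1, Irx3, was called lower, against 0.859% of all genes lower. Of the 13, 12 had a difference below 0, as did 52.6% of all genes, and the median was −0.20. Phospholamban (Pln) was 21506, 20684, 23824, 30628 and 27905 against 25669.5, 27562, 23966, 31720.0 and 32021, with a difference of −0.25 ± 0.079. The gap junction gene Gja1 had −0.28 ± 0.093, Myl3 had −0.13 ± 0.083 and Myh7 had −0.18 ± 0.11. Hey2, a transcription factor of compact ventricular wall, was the exception with 0.23 ± 0.10. Kcnip2 was listed at 0 in all sham libraries. The potassium channel gene Kcnd2 (−0.12) and Nav2 (−0.14), Lbh (−0.066) and Fhl2 (−0.20) were also below 0. The summed counts ran from 108850.0 to 137720.0 in the rich and from 115417 to 146821 in the poor libraries.

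Some genes of fat cells were far higher in the rich ventricles, with the difference of Adipoq inside the range of the leading atrial genes. Adipoq, which encodes the fat hormone adiponectin, was 200.1, 162, 136, 21.2 and 295 in the rich and 0, 0, 25.3, 0 and 0.790 in the poor libraries. It was at 0 in 3 of the 5 poor libraries, but replicate 5 at 4 weeks, the poor library with the most Myl7, exceeded replicate 2 at 8 weeks, the rich library with the least. Plin1, the coat protein of the fat droplet, was 29.5, 28.1, 47.8, 4.62 and 37.03 against 0, 0, 1.10, 1.05 and 0, with no overlap. Car3, a carbonic anhydrase abundant in fat and slow muscle, was 428, 302, 245, 77.5 and 534 against 33.2, 0, 38.5, 4.20 and 1.58, also with no overlap. Differences on the log2 scale were 6.05 ± 0.82 for Adipoq, 5.46 ± 0.81 for Car3 and 4.24 ± 0.60 for Plin1.

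For adiponectin the order of the rich libraries was not that of Myl7. Its normalized count was highest in replicate 5 at 8 weeks, while replicate 1 at 8 weeks, with the most Myl7, came behind 3 others. The enzyme Scd, which desaturates fatty acids, was 1546, 615, 1009, 95.1 and 130.0 against 94.9, 4.78, 163, 8.40 and 7.90, so that replicates 2 and 5 at 8 weeks lay inside the poor range for this gene. Fatty acid synthase (Fasn) was 1463, 929.6, 1143, 324 and 549 against 302, 262, 413, 236 and 208. Its difference was 1.63 ± 0.26.

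Of 18 listed adipocyte genes all had an ID and 12 passed the filter. Of these 7 were called higher and 0 lower, against 3.02% and 0.859% of all genes, with a median of 3.32. Plin1 (at most 1.10 in the poor libraries) and Retn (at most 2.20) passed through the rich libraries alone. Adipoq, Car3, Scd and Thrsp also could not have passed without the rich libraries, as too few poor libraries reached the minimum value. Among the genes called higher, only Cfd met the filter in the poor libraries by themselves. This leans the count and the median toward higher genes. The 7 were Adipoq, Car3, Plin1, Scd, Thrsp (4.41), Retn (3.71) and Cfd (1.54). Fabp4, which capillaries also make, had −0.13 ± 0.12, and Cidec was listed at 0 in every sham library. Summed counts of the list ran from 5687 to 7876 in the rich and from 5156 to 6113 in the poor libraries. The share of this signal in the differences of other genes was not tested.

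Contractile genes of smooth muscle were also higher in the rich ventricles, most of all in replicate 3 at 4 weeks. Tagln, the actin-binding protein transgelin, was 1253, 3206, 652, 1021 and 1193 in the rich and 304, 349, 505, 318 and 484 in the poor libraries. Cnn1 (calponin) was 104, 300.0, 51.6, 57.2 and 63.8 against 10.5, 3.82, 19.8, 8.40 and 12.6. Myh11, the smooth muscle myosin, was 2648, 6648, 1963, 2556 and 2527 against 893, 1096, 1228, 1107 and 1502. The sides did not overlap in these genes, and replicate 3 at 4 weeks was more than 2 times as high as the next library in each. Log2 differences were 3.22 ± 0.42 for Cnn1, 1.82 ± 0.27 for Tagln and 1.42 ± 0.24 for Myh11.

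All 14 listed smooth muscle and pericyte genes passed the filter, 5 were called higher (those 3 with Acta2 and Lmod1) and 0 lower, against 3.02% and 0.859% of all genes, and 7 of the 14 had a difference below 0, as did 52.6% of all genes. The median was 0.087. Genes of pericytes, the cells around capillaries, were not among those called: Rgs5 was 1266, 1134, 1017, 1128 and 1130.5 against 1274, 1343, 1252, 1142 and 1266 with a difference of −0.12 ± 0.062, and Pdgfrb had −0.017 ± 0.10. Summed counts ran from 12226 to 22939.8 in the rich and from 10840.0 to 12468 in the poor libraries. Without replicate 3 at 4 weeks the same number, 5, was called higher.

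Genes of fibroblasts and connective tissue were broadly higher in the rich ventricles, by smaller factors. Fbln1, a fibulin of elastic and basement matrix, was 1249, 1553, 956, 835 and 957 in the rich and 579.7, 527, 795, 616 and 579 in the poor libraries, without overlap. Collagen 1 (Col1a1) was 7369, 12265, 2735, 2305 and 2896 against 3709, 3208, 6345, 1907 and 1684, where the sides overlapped across times but not within a time. Elastin (Eln) was 4779.8, 11362, 1151, 1073 and 1345 against 1364, 1857, 2364, 771 and 843, and it was highest in replicate 3 at 4 weeks. Log2 differences were 1.29 ± 0.26 for Eln, 0.89 ± 0.12 for Fbln1, 0.86 ± 0.18 for Col1a1, 0.69 ± 0.080 for the proteoglycan Lum and 0.41 ± 0.073 for decorin (Dcn).

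Of 24 listed fibroblast genes 21 had an ID and 17 passed the filter. Of these 16 were called higher and 0 lower, against 3.02% and 0.859% of all genes, and the median was 0.69. Summed counts ran from 42564 to 124702 in the rich and from 33074 to 70456 in the poor libraries, so the sums overlapped over both times. Igf1 was listed at 0 in all sham libraries. Leaving out any 1 sham library left between 13 and 16 of the 17 called higher. Fmod, a proteoglycan of tendon and valve, was 196, 235, 109, 113 and 65.4 against 9.73, 27.7, 68.3, 32.5 and 29.2, and it was 1 of 2 genes called higher among 8 measured genes of the valve and cartilage list, with Col11a1, against 3.02% of all genes, and 1 was called there without replicate 3 at 4 weeks.

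Several Schwann cell genes, which mark nerve sheaths, were higher in the rich libraries. S100b, a calcium-binding protein of these cells that fat cells also make, was 70.6, 78.1, 57.3, 36.9 and 79.6 in the rich and 8.92, 16.2, 14.3, 8.40 and 15.8 in the poor libraries. Cdh19, a cadherin of nerve sheath cells, was 86.7, 94.5, 86.01, 84.9 and 89.02 against 38.1, 32.5, 38.5, 46.2 and 44.3. Neither gene overlapped between the sides. Of 12 listed genes 10 passed the filter, 6 were called higher and 0 lower, against 3.02% and 0.859% of all genes, and all 10 had a difference above 0, as did 47.4% of all genes, with a median of 0.80. Without replicate 3 at 4 weeks 3 were called higher. The summed counts were 1053 to 1525 in the rich and 790.2 to 965 in the poor libraries. Of 15 listed genes of nerve cells, 4 passed the filter and 0 were called, and Slc18a3, Snap25 and Stmn4 were listed at 0.

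Macrophage genes followed with a smaller difference, with members from 0.031 to 0.84. Cd163, a scavenger receptor of resident macrophages, was 555, 612, 694, 656 and 616 in the rich and 337, 362, 336, 437 and 449 in the poor libraries, without overlap. Csf1r, the receptor these cells depend on, was 804, 878, 629, 612 and 609.7 against 526, 589, 549, 475 and 486. Their differences were 0.66 ± 0.071 and 0.48 ± 0.069. Of 12 measured macrophage genes 8 were called higher and 0 lower, against 3.02% and 0.859% of all genes, all 12 lay above 0, as did 47.4% of all genes, and the median was 0.59. Of the 8 called, 6 had their highest value of the rich libraries in replicate 3 at 4 weeks, and without it 4 were called higher. Summed counts were 3578 to 5359 in the rich and 2838 to 3449.7 in the poor libraries.

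Of the endothelial genes 0 were called. Pecam1, an adhesion protein of all vessels, was 1164, 1184, 994, 1075 and 1029 in the rich and 1244, 1205, 1060.2, 955 and 1147 in the poor libraries, a difference of −0.0056 ± 0.068. Kdr, the receptor for vascular endothelial growth factor, was 906, 770.3, 1156, 891 and 1011 against 1035, 1324, 1372, 1091 and 1198, a difference of −0.37 ± 0.10. Of 14 measured genes 0 were called in either direction and 10 lay below 0, as did 52.6% of all genes, with a median of −0.065 and summed counts of 9446 to 10819 against 9760.4 to 12112.

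**Figure D3:**
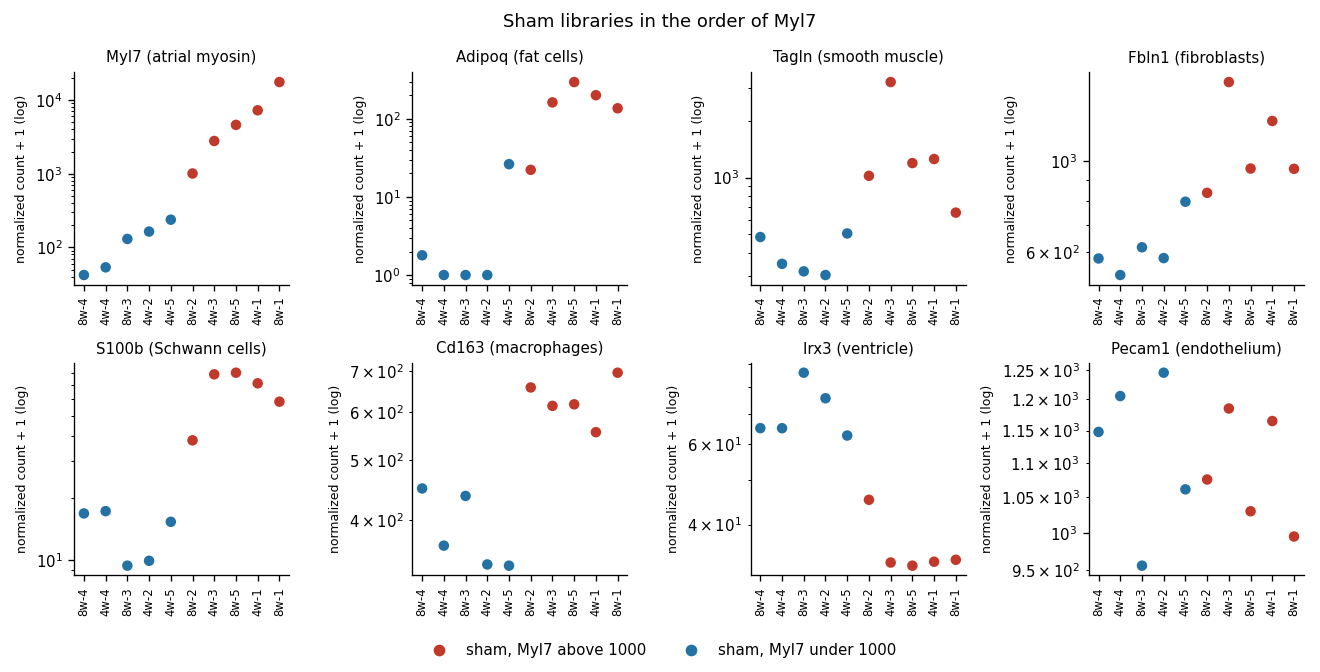
Normalized count + 1 (log axis) of 8 marker genes in the 10 sham libraries, ordered from left to right by rising Myl7 and named by weeks and replicate (8w-4 is replicate 4 at 8 weeks); red and blue mark Myl7 above and under 1000. Irx3 drops from at least 61.7 in the blue to at most 44.3 in the red libraries, while Pecam1 shows no step.

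Surface and lining tissues gave mixed values. Krt19, a keratin of the epicardium, was 49.1, 31.2, 49.7, 79.4 and 6.30 against 12.97, 4.78, 18.7, 18.9 and 1.58 and overlapped. Of 10 measured epicardial genes 0 were called, although 7 lay above 0, as did 47.4% of all genes, and the median was 0.69. In that list Aldh1a2, a retinoic acid synthesizing enzyme, was 33.1, 24.2, 26.8, 31.4 and 25.2 against 14.6, 21.97, 20.9, 13.6 and 12.6, without overlap. Among 8 measured endocardial genes 1 was called, against 3.02% of all genes called higher. This was the cytokine-like Cytl1, at 251, 344, 250.4, 315 and 284 against 108, 135, 116, 165 and 228. Among 6 measured lymphatic genes Pdpn (0.77 ± 0.16) and the hyaluronan receptor Lyve1 were called higher, against 3.02% of all genes, and 0 were without replicate 4 at 8 weeks and 1 without replicate 1 or 3 at 4 weeks.

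Pacemaker and conduction tissue showed 1 gene called of 8 measured, against 3.02% of all genes, and 0 without replicate 1 at 4 weeks or 4 at 8 weeks. This was Vsnl1, a neuronal calcium sensor, at 25.9, 14.1, 57.3, 7.39 and 28.4 in the rich and 3.24, 7.64, 3.30, 4.20 and 2.37 in the poor libraries, a difference of 2.22 ± 0.49. Vsnl1 reached a value of 10 in rich libraries only, so it passed the filter through them alone, which leans this count toward higher genes. Hcn4, the pacemaker channel, was 97.4, 90.6, 87.9, 90.5 and 54.4 against 40.5, 28.7, 41.8, 129 and 56.9 and overlapped. In the retinoic acid list Aldh1a3 and the retinol carrier Rbp4 were called higher of 10 measured, against 3.02% of all genes, and 1 was in 6 of 10 cases with a single library left out. Aldh1a3 was 58.1, 63.3, 26.8, 27.7 and 46.5 against 25.9, 20.1, 26.4, 11.5 and 12.6, and Rbp4, which fat also makes, was 90.2, 75.8, 28.7, 16.6 and 58.3 against 74.6, 0, 15.4, 2.10 and 1.58.

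**Figure D4:**
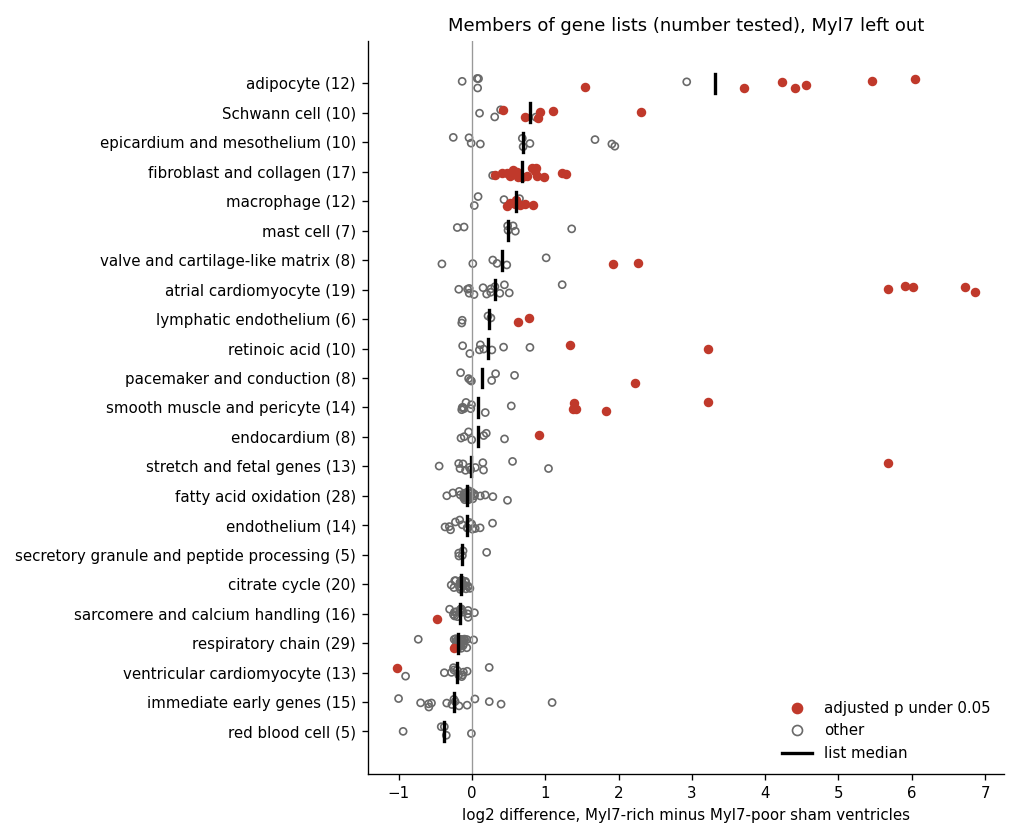
Fitted log2 difference, Myl7-rich minus Myl7-poor, for each tested member of 23 gene lists with at least 5 members tested, with 1 row per list, the number tested in brackets and a bar at the list's median. Filled points have an adjusted p under 0.05. Some members, such as Plin1, Retn, Sln, Mybphl and Bmp10, passed the filter through the rich libraries alone. The adipocyte list has the highest median (3.32), and the atrial list has 5 genes above 5 while its other members lie at 1.23 or under.

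Over all genes, 411 of 10589 (3.88%) were called, 320 higher and 91 lower in the rich ventricles. The 320 include Myl7, whose difference the choice fixed, and 319 are others. Of the 411, 98 were higher and 4 lower by at least 2-fold. In 218 genes (2.06%) every rich library lay above every poor one, and in 70 (0.661%) every rich library lay below. Among the 319 genes called higher beside Myl7, 193 had their highest value of the rich libraries in replicate 3 at 4 weeks, as did 2440 of all 10589 genes. The part of this library's other cell markers in the differences was not tested. Without that library 155 genes were called higher, 154 of them shared with the 320, and 16 lower, 15 of them shared with the 91. Without replicate 1 at 4 weeks 182 were called higher and 35 lower, and the number lower was also 48, 36 and 41 without replicate 4 at 4 weeks and replicates 3 and 4 at 8 weeks.

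Beside the genes above, the largest differences for genes averaging 50 or more whose sides did not overlap were those of Epyc, Hamp, Sfrp2 and Sbk2. Epyc, a small proteoglycan of cartilage, was 140.3, 136, 101, 58.2 and 145 in the rich and 3.24, 3.82, 14.3, 12.6 and 5.53 in the poor libraries (3.85 ± 0.38). Hamp, which encodes the iron hormone hepcidin, was 137, 46.9, 428, 22.2 and 113 against 14.6, 4.78, 5.50, 13.6 and 7.11 (3.27 ± 0.59). Sfrp2, a secreted antagonist of Wnt signals, was 276, 305, 164, 114 and 144 against 36.5, 25.8, 55.05, 27.3 and 18.2 (2.76 ± 0.20). Sbk2, a protein kinase, was 115, 39.1, 375, 48.9 and 75.6 against 17.8, 7.64, 12.1, 15.7 and 25.3 (2.42 ± 0.46). Hamp and Sbk2, like the atrial genes, were highest in replicate 1 at 8 weeks, while Epyc and Sfrp2 were highest in other libraries.

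Fewer genes were lower in the rich ventricles, and by less. Under the same rule Irx3 led with −1.03 ± 0.16. Ros1, a receptor tyrosine kinase, was 363, 265, 419, 425 and 354 in the rich and 502, 496, 460.2, 587 and 497 in the poor libraries (−0.54 ± 0.10). Hint1, a nucleotide hydrolase, was 95.6, 126, 141, 104 and 143 against 156, 185, 194, 162 and 175 (−0.54 ± 0.13). Pola2, a subunit of DNA polymerase alpha, was 384, 333, 321, 349 and 349.8 against 495, 456, 417, 535 and 517 (−0.49 ± 0.082). Lamb2, a laminin of the muscle basement membrane, had −0.27 ± 0.060. Poc5, Glb1l2, Nav3, Higd1a, Apobec2, Txn2 and Atp5f1d also met the rule, with differences from −0.47 to −0.27.

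Heart muscle's energy and contraction genes lay slightly lower in the rich ventricles. In the respiratory chain 28 of 29 measured genes had a difference below 0, against 52.6% of all genes, with a median of −0.19, and 1, Cox5a (−0.25 ± 0.066), was called lower, against 0.859% of all genes. Without single sham libraries 0 of the 29 were called in 8 of 10 cases. All 20 citrate cycle genes lay below 0 with a median of −0.15 and 0 were called. In fatty acid oxidation 21 of 28 lay below 0 (median −0.063) and 0 were called. Among 16 measured sarcomere and calcium handling genes 15 lay below 0 (median −0.16), and Hrc, a calcium-binding protein of the sarcoplasmic reticulum, was called lower (−0.47 ± 0.12). In that list 0 were called without replicate 2, 3 or 4 at 4 weeks or 3 or 4 at 8 weeks. Tpm1 and Slc8a1 were listed at 0. Normalized counts are read counts divided by 1 factor per library. The lower values of these abundant genes stood beside the higher values of other cell types described above. The part of one in the other was not tested.

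Among 13 measured load genes, Nppa was the 1 called, against 3.02% of all genes called higher. Nppb, the second natriuretic peptide gene of stretched muscle, was 425, 502, 577, 195 and 591 in the rich and 165, 372, 85.9, 213 and 297 in the poor libraries, a difference of 1.04 ± 0.35 with overlap. The median of 13 measured stretch and fetal genes was −0.018. Among 5 measured genes of secretory granules 0 were called, with a median of −0.13.

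The banding ventricles allowed a test in libraries that had no part in the choice. There, each gene was fitted on log2(Myl7 + 1) with weeks in the model, giving a slope in log2 units per log2 unit of Myl7. Of 10588 genes 19 were called (0.179%), 17 with a slope above 0 (0.161%) and 2 below 0 (0.0189%). Among the called genes were 4 of the 19 measured atrial genes. In the order of rising Myl7 (24.7, 30.04, 64.2, 70.2, 73.3, 172, 743, 1160.2 and 2315), Myl4 was 73.5, 76.1, 74.1, 82.2, 69.6, 110.5, 432, 704 and 1420.2. Its slope was 0.72 ± 0.041 (limma, adjusted p = 1.06e-06, n = 9). Sln was 8.69, 16.02, 6.59, 22.2, 5.86, 15.9, 94.1, 137 and 271 in the same order. Its slope was 0.83 ± 0.068 (limma, adjusted p = 6.12e-05). In both genes the 3 libraries with the most Myl7 stood above the other 6.

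Mybphl was 0.668, 4.01, 5.76, 8.32, 2.93, 2.81, 41.5, 57.2 and 148 in that order, with a slope of 0.90 ± 0.10 (limma, adjusted p = 0.00204). Bmp10 was 0.668, 0, 0, 0.924, 2.20, 4.68, 18.5, 104 and 24.4, with a slope of 0.89 ± 0.14 (limma, adjusted p = 0.0224). Bmp10 was highest in the library with the next to highest Myl7. The calls of Myl4 and Sln held when any single banding library was left out. Those of Mybphl and Bmp10 did not: without replicate 3 at 8 weeks the adjusted p was 0.0723 for Mybphl and 0.0649 for Bmp10, and Bmp10 also missed the threshold without replicate 1, 2 or 5 at 4 weeks (0.0518, 0.125 and 0.053).

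The slope of Nppa on Myl7 did not reach a call in banding. In the order of rising Myl7 it was 34942, 23715, 7878, 30167, 11738, 26642, 27403, 25203 and 22747, and its slope was 0.083 ± 0.071 (limma, adjusted p = 0.653). Without replicate 3 at 8 weeks the slope was 0.32 (limma, adjusted p = 0.135), and without replicate 1 at 4 weeks 0.021 (limma, adjusted p = 0.916), so its size is poorly fixed. The library with the least Myl7 had the most Nppa. In sham the slope of Nppa on Myl7, fitted over all 19 libraries with a slope for each operation, was 0.95 ± 0.093, and that of Myl4 was 1.00 ± 0.060. The slope in banding minus that in sham was −0.87 ± 0.16 for Nppa and −0.28 ± 0.11 for Myl4, and neither reached a call. The sham slopes rest on the values that chose the sides, so these differences are a description.

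Of the other cell types, 1 fat gene was called in banding, and its call depended on single libraries. Adipoq was 0, 2.003, 1.65, 2.77, 7.33, 10.3, 6.46, 35.8 and 51.6 in the order of Myl7, with a slope of 0.69 ± 0.12 (limma, adjusted p = 0.045). It was 1 of 12 measured adipocyte genes called, and 4 had a slope above 0 at an unadjusted p under 0.05, against 6.31% of all genes, with 2 below 0 against 6.74%. Its adjusted p ran from 0.0186 to 0.278 with single libraries left out, and it missed the threshold without replicate 1, 2 or 5 at 4 weeks or 3, 4 or 5 at 8 weeks. Plin1 had a slope of 0.52 ± 0.15 (adjusted p = 0.203) and Car3 one of 0.58 ± 0.15 (adjusted p = 0.139) in limma. Smooth muscle genes had 0 of 14 called (median slope 0.020), fibroblast genes 0 of 17 (0.0089), Schwann cell genes 0 of 10 (0.035) and macrophage genes 0 of 12 (0.012), beside a median of −0.0028 for all genes. At an unadjusted p under 0.05, with a slope above 0, these lists had 3, 1, 1 and 0 genes. By the same mark the lymphatic list had 4 of 6, the endocardial and valve lists 3 of 8 each and the endothelial list 0 of 14. In these further lists 0 genes were called. All 6 lymphatic slopes were above 0, as were 47.1% of all slopes, with a median of 0.11.

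In the ventricular list 0 of 13 genes were called in banding, 11 of 13 slopes were below 0 against 52.9% of all genes, and Irx3 was 76.8, 58.1, 52.7, 35.1, 98.97, 50.6, 50.7, 51.5 and 64.5 in the order of Myl7, with a slope of −0.033 ± 0.057 (limma, adjusted p = 0.849). All 29 respiratory chain slopes were below 0, with a median of −0.031, and 0 were called. At an unadjusted p under 0.05 and below 0 there were 16 of the 29, against 6.74% of all genes.

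In all, 7 genes called higher in sham were also called with a slope above 0 in banding, of 319 in sham and 19 in banding. They were Myl4, Sln, Mybphl, Bmp10, Adipoq, Lbp and Atp1b4. Of these, Sln, Mybphl, Bmp10 and Atp1b4 passed the filter on sham values through the rich libraries alone. Adipoq also could not pass without them, so the filter leans this overlap toward genes high in rich libraries. Atp1b4, a muscle protein of the nuclear membrane, was 83.1, 32.8, 182, 3.69 and 52.8 in the rich and 3.24, 2.87, 1.10, 0 and 5.53 in the poor sham libraries and 5.35, 6.01, 4.94, 6.47, 1.47, 9.36, 16.6, 58.7 and 63.1 in banding by rising Myl7. Its banding slope was 0.63 ± 0.10 (limma, adjusted p = 0.0224), which was not refitted with libraries left out. Lbp, a binding protein for bacterial lipopolysaccharide, had 0.95 ± 0.21 in sham and a banding slope of 0.24 ± 0.037 (limma, adjusted p = 0.0224). Lbp missed the threshold without replicate 1, 2 or 5 at 4 weeks or 3 or 4 at 8 weeks, with adjusted p up to 0.118. Of the 319 genes 217 had a slope above 0 in banding, as did 47.1% of all genes, and 52 of them at an unadjusted p under 0.05, against 6.31%. Of the 91 genes called lower in sham 59 had a slope below 0, against 52.9% of all genes, and 13 of them at an unadjusted p under 0.05, against 6.74%.

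**Figure D5:**
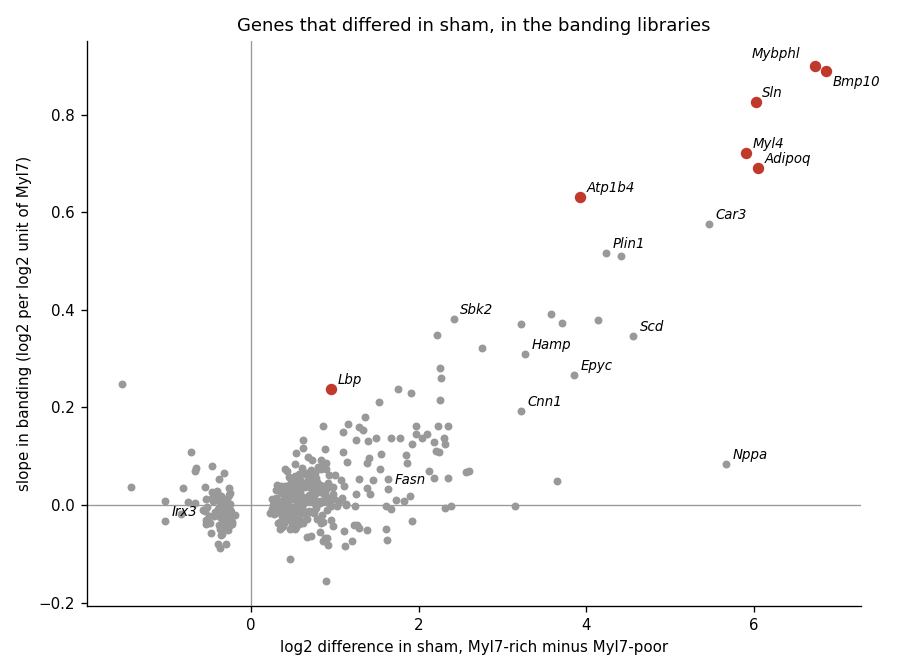
Slope on Myl7 in the 9 banding libraries (log2 per log2 unit) against the log2 difference between rich and poor sham ventricles, for the 410 genes called in sham beside Myl7, with each point 1 gene. Red marks the 7 genes called in both, and Nppa stands apart with 5.67 in sham and a slope of 0.083 in banding.

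The other 12 genes called in banding were not called in sham. The GTPase gene Rab15 had a slope of 0.50 ± 0.079 (limma, adjusted p = 0.0224) and a sham difference of 2.15 ± 0.63. Spen, Zmiz1, Srrm1, Srrm2, Rere, Kmt2e, Leng8, R3hdm2 and the synaptic scaffold gene Shank3 had slopes of 0.092 to 0.15 and sham differences of −0.25 to 0.10. The peptidase gene Dpp4 had −0.20 ± 0.033 (limma, adjusted p = 0.0314) and the sterol regulator Insig1 −0.12 ± 0.022 (limma, adjusted p = 0.045), and both lay above 0 in sham. Genes with a called slope above 0 numbered 3 without replicate 2 at 4 weeks and 6 without replicate 3 at 8 weeks. These are the 2 libraries with the most Myl7, and they held 3.70 and 3.80 M recovered reads. Replicate 1 at 8 weeks held 2.70 M and every other banding library 5.59 M or more. The part of depth in these slopes was not tested. Called slopes above 0 numbered 5, 6 and 6 without replicates 1 and 5 at 4 weeks and replicate 4 at 8 weeks.

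Time after surgery was compared among the same sham ventricles, with the Myl7 side as a term. Between 4 and 8 weeks 1099 genes changed (10.4%) in limma, of which 514 rose (4.85%) and 585 fell (5.52%). Without the Myl7 term 252 rose and 304 fell, and all 556 were among the 1099. The authors' deposited table for this comparison called 957, with 431 higher and 526 lower at 8 weeks. Postn, Tnc and Eln, genes of the matrix, fell with time. Postn, a matrix protein of growing and healing tissue, was 827, 264, 1321, 511 and 731 in replicates 1 to 5 at 4 weeks and 185, 237, 106, 70.3 and 216 at 8 weeks, a change of −2.35 ± 0.22 (adjusted p = 2.7e-05). Tnc, a matrix protein of development, was 147, 113, 174, 121 and 149 and then 47.8, 30.5, 26.2, 39.5 and 34.7, a change of −2.01 ± 0.16 (adjusted p = 1.71e-05). Eln changed by −1.90 ± 0.26 (adjusted p = 0.00059). Without replicate 3 at 4 weeks 216 genes rose and 270 fell, and without replicates 1 and 5 at 4 weeks and 2, 3 and 4 at 8 weeks the number that rose was 332, 318, 331, 264 and 247, with 374 that fell without replicate 3 at 8 weeks.

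In the fibroblast list 13 of 17 genes fell with time and 0 rose, against 5.52% of all genes that fell. In fatty acid oxidation 21 of 28 genes rose and 0 fell, against 4.85% of all genes. Fmo2, a flavin monooxygenase, was 187, 161, 207, 136 and 183 at 4 and 434, 390.5, 507, 446 and 454 at 8 weeks, a change of 1.34 ± 0.11 (adjusted p = 1.71e-05). Fkbp5, a co-chaperone of steroid receptors, changed by 1.18 ± 0.17 (adjusted p = 0.000602). Among the leading atrial genes the estimate for Myl7 was −0.42 ± 0.61 (adjusted p = 0.73) and for Nppa 0.031 ± 0.62 (adjusted p = 0.985), in limma. Of the 19 other measured atrial genes 1 rose and 0 fell.

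Whether the rich minus poor difference was the same at both times was examined by an interaction in limma, a description on the same chosen sides. There 0 of 10589 genes were called, with 438 at an unadjusted p under 0.05, and edgeR on recovered reads called 0, with 466 at an unadjusted p under 0.05. Without replicate 1 at 4 weeks limma called 7. The smallest p belonged to Frzb, a Wnt antagonist, at 130.4, 350.0, 45.9, 43.4 and 45.7 in the rich and 49.5, 33.4, 36.3, 40.9 and 45.1 in the poor libraries. For Spp1 (osteopontin) the values were 172, 577, 21.02, 30.5 and 36.2 against 5.68, 12.4, 31.9, 17.8 and 17.4. In both genes the sides stood apart at 4 weeks and close at 8 weeks, with an interaction of −2.35 ± 0.45 and −3.80 ± 0.79, neither of them called. For Myl4 the interaction was −0.17 ± 1.04, an interval too wide to exclude differences of 2-fold.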

How the data were processed

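RNA of rat right ventricles was isolated with Trizol and sequenced as TruSeq Ribo-Zero Gold libraries from 800 ng, per the labels' protocols. STAR, DESeq2 and the build rn6 are named in the submitters' processing notes; how reads were counted, and with which strand setting, was not given in the sources used here. Per-gene values deposited by the authors are a signal, read counts divided by 1 factor per library, and whole reads could be recovered within 0.001 in 19 libraries; banding replicate 2 at 8 weeks was not analysed here. The authors' deposited table of sham at 4 against 8 weeks gives log2 fold changes, p-values and a test score. Of 18282 IDs 17359 took a symbol from RefSeq (GRCr8, names only) and 922 from the authors' deposited table.

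Genes at 10 or more in at least 4 sham libraries were fitted as log2(value + 1) in limma 3.58.1 (R 4.3.3) with Benjamini-Hochberg adjustment at 0.05. The libraries of either side alone could meet this filter. All 10 sham libraries entered the fit of side and weeks, and the 9 banding libraries that of log2 Myl7 and weeks. Alternatives used edgeR 4.0.16 and DESeq2 1.42.0 on recovered reads, other pseudocounts, limits and scalings, and left-out libraries. The fits were tested on simulated data. The members and gene lists were chosen with earlier results of these data known. Named genes are all atrial and ventricular list members, the 3 best-ranked of other lists, and the 12, 8 and 5 largest per direction in sham, banding and weeks with a mean of at least 50, plus 3 of the interaction; others were chosen after their values were seen. Some genes are not reported here.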

Additional observations from a re-analysis of the deposited data

Results flagged for a closer look

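In 21 of 380 combinations of a gene and a labelled group, 1 library lay far from the others on the log2 scale. Chance gives about 1 in 20 of these. Each value is the library's gap to its nearest neighbour as a share of the group's range. Replicate 3 of banding at 8 weeks was highest for Myl4 (0.962), Atp1b4 (0.930) and Rab15 (0.869). Replicate 1 of sham at 8 weeks was highest for Cacna1d (0.749), Kcnj5 (0.773), Pam (0.771), Kcnj3 (0.764) and Zmiz1 (0.776). Replicate 5 of banding at 8 weeks was highest for Dkk3 (0.879). Replicate 4 of banding at 8 weeks was highest for Pam (0.860) and Pdgfrb (0.846). Replicate 3 of sham at 4 weeks was lowest for Kcnj3 (0.751) and Hrc (0.740). Replicate 5 of banding at 4 weeks was lowest for Kcna5 (0.833). Replicate 4 of banding at 4 weeks was highest for Irx3 (0.938). Replicate 1 of sham at 8 weeks was lowest for Myl2 (0.742) and Myl3 (0.743). Replicate 4 of banding at 8 weeks was lowest for Cfd (0.970) and Lmod1 (0.975). Replicate 4 of banding at 4 weeks was lowest for Myh11 (0.805) and Acta2 (0.790).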

How the results depend on the processing

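The number of genes called higher in rich sham ventricles was 320, and it was 156 with the replicate block and 43 in the 8-week libraries alone. The number called lower was 91, and it was 57 with no filter, 26 with the replicate block, 49 at a Myl7 limit of 2000, 16 in the 4-week and 4 in the 8-week libraries alone and 168 with DESeq2. Without single libraries these counts were 155 to 328 higher and 16 to 98 lower. For time in sham, 252 rose and 304 fell with no Myl7 term, and 58 and 109 in the poor libraries alone, and without single libraries 216 to 619 rose and 270 to 621 fell. For the banding slope, 17 were called higher, and 27 with quantile normalization, 0 with a split at 1000, 3 without the 2 libraries farthest from the median of Myl7 and 1 with the replicate block. Called lower were 2, and 1 with no filter, 0 with the split, 0 without those 2 libraries, 0 with the block and 1 with edgeR. Without single libraries 3 to 18 were called higher and 0 to 3 lower. The interaction gave 0 to 7 calls without single libraries. Nppa's banding slope, not called, turned to −0.47 with the replicate block. The cause of these shifts was not tested. Of the other values of single genes, 2998 stayed within the spread or on their side of the threshold, 55 moved and 83 lost their call.

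Same-numbered sham libraries at 4 and 8 weeks correlated in their deviations by 0.355, −0.0149, −0.329, 0.258 and −0.192, and only number 1 matched best with itself. The Myl7 side was not removed first. Numbers 1 and 4 kept their side at both times, and numbers 2, 3 and 5 changed it. The check therefore cannot show whether replicate numbers pair the sham samples. With the block 503 genes rose and 588 fell with time, and the interaction gave 0 calls. Values under about 10 rest on few reads, since 1 read was worth 0.668 to 2.00 normalized counts. Several transcripts were listed at 0 in all sham libraries although every heart uses them (Tpm1, Slc8a1), so a listed 0 is given only as listed.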

Other observations

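Lists not described above gave few calls between rich and poor sham ventricles. Among 15 measured immediate early genes, which respond within minutes to handling, 0 were called and the median was −0.25. Their summed counts ran from 4644 to 8371 in the rich and from 3286 to 18201 in the poor libraries. Of 5 measured red blood cell genes, whose near-identical globin copies make the values uncertain, 0 were called. All 5 lay below 0 (median −0.38), against 52.6% of all genes. Mast cell genes had 0 of 7 called (median 0.49). Lymphocyte and thymus genes had 1 of 3 called higher, against 3.02% of all genes, and 0 in 8 of 10 cases with a single library left out. This was Cd4, which rat macrophages also make. Skeletal muscle genes had 0 of 2 called, with Tnnt3 listed at 0, and lung epithelium 0 of 1, with Sftpa1 listed at 0.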
